A study of Rattus norvegicus with 16 samples.

Results

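The immediate early genes of neuronal activity were followed across rat frontal cortex: Fos, Fosb, Fosl2, Junb, Arc, Egr1, Egr2, Egr3, Nr4a1 and Npas4, which are 10 genes chosen by name. A locus of the deposited table was taken as a member where its gene symbol equals one of these names, and 9 of the 10 names matched, each with 1 locus, out of 28168 loci in the table. Fosb matched none by symbol, and the locus that carries its gene ID is described separately. All 9 loci passed the filter on low values (a mean of at least 1 FPKM, the number of sequenced fragments per kilobase of a transcript after scaling to library size) and were tested among 14824 loci.

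The 16 samples came from male Sprague Dawley rats, 11 weeks old when assigned, which ate their diet for 7 weeks. Of the 4 groups of 4 samples, the chow group ate standard chow and was not injected, and the group called HF here ate a high fat diet and was not injected either. The HF+PBS group ate the same high fat diet and had 10 days of intraperitoneal injections of phosphate-buffered saline, the vehicle. The HF+5-AzaD group differed from it in that the injected saline carried 5-aza-2′-deoxycytidine (5-AzaD), which blocks the DNA methyltransferases, enzymes that add methyl groups to cytosine. Where injected animals are set against uninjected ones, whatever was handled together with the injections cannot be told apart from them. No group ate chow and was injected. Chow differs from both injected groups in diet as well, so diet and injections cannot be told apart where injected groups are compared with chow.

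Immediate early genes are switched on within minutes of strong synaptic input, without new protein synthesis, when calcium and kinase signals reach transcription factors that already sit on their promoters, such as CREB and serum response factor. Most of them encode transcription factors that then act on later genes, and Arc encodes a synaptic protein. In cortex they serve as a record of recent neuronal activity, and their RNA is short-lived. Fos, Fosb, Fosl2 and Junb belong to the AP-1 family, in which Fos-type proteins pair with Jun-type proteins to bind DNA. Egr1, Egr2 and Egr3 are zinc finger factors, Nr4a1 is an orphan nuclear receptor, and Npas4 is a factor of neurons that depends on calcium entry.

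The proximal promoters of 4 members are shown. Egr1, Egr2 and Nr4a1 varied together from library to library and were called in no comparison, and Fosl2 differed between injected and uninjected groups. These 4 were picked by that behaviour, so they cannot show whether motifs go with it. Fosl2 also varied with Egr1, Egr2 and Nr4a1 (Pearson r = 0.604, 0.630 and 0.662, group means removed), where Egr1 and Egr2 gave r = 0.671. Each runs from 250 bases before to 50 bases after the annotated gene start, from RefSeq on build GRCr8. Capitals mark CArG boxes (the site of serum response factor) and copies of TGACG, the CREB half-site, read on either strand, where CGTCA is TGACG on the opposite strand. The positions are chr18:26736828-26737127 (plus strand) for Egr1, chr20:21054392-21054691 (minus strand) for Egr2, chr7:134259888-134260187 (plus strand) for Nr4a1 and chr6:30039220-30039519 (minus strand) for Fosl2.
Egr1: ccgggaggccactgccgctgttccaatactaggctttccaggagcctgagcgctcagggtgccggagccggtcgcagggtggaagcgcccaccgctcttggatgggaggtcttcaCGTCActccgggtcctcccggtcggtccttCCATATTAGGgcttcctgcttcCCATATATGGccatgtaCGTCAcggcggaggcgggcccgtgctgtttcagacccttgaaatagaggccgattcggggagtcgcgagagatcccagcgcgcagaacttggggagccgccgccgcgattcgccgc
Egr2: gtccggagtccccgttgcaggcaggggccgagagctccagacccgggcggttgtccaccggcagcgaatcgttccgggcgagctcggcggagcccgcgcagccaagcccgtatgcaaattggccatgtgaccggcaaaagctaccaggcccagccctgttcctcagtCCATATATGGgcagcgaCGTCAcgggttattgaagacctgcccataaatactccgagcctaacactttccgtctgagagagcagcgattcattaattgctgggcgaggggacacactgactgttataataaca
Nr4a1: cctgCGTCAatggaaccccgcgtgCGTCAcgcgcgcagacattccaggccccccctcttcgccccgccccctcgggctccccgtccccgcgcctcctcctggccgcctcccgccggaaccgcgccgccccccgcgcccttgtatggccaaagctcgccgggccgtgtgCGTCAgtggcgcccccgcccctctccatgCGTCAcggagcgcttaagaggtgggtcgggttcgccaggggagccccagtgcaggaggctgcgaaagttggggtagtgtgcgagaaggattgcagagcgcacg
Fosl2: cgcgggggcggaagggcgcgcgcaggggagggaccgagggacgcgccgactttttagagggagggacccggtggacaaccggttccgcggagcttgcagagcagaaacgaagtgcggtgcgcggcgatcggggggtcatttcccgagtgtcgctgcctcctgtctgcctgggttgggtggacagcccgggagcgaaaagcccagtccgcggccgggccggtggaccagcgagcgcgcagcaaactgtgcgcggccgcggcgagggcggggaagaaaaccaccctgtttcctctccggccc

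Egr1 held 2 CArG boxes in this window, whose first printed letters lie 105 and 83 bases before the start, and 2 half-sites at 135 and 66 bases. Egr2 held a CArG box at 83 bases and a half-site at 66 bases, the same distances as the nearer pair in Egr1. Nr4a1 held 4 half-sites, at 246, 226, 82 and 53 bases before the start, and no CArG box. Fosl2 held no match to either motif. Junb held 1 half-site, 155 bases before its start, and no CArG box, and Npas4 and Fosb held neither motif. Npas4 and the locus with the Fosb gene ID also varied with Egr2 between libraries (Pearson r = 0.850 and 0.979, group means removed). Of 33469 promoters of the same length in the table, 21.2% held TGACG and 1.64% held a CArG box. The full CREB site TGACGTCA, which contains the half-site, was in 1.83% of them and in none of the 7 member promoters. These matches describe letters in a window and do not show binding. Fos, Arc and Egr3 have no entry in the promoter table.

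Some facts on the libraries bear on all results below. The deposited values are FPKM without counts, so the absolute depth is unknown. Relative depth, read from the steps between low values, could be estimated for 12 libraries, of which chow 2 was the deepest and the others held 30.2% to 54.5% as many fragments. In the remaining 4 libraries (chow 1, HF 5, HF+PBS 1 and HF+5-AzaD 3, 1 in each group) these steps did not match those of the 12: the commonest ratio of low values held 2.49% to 6.51% of loci between a library of the 4 and one of the 12, and 16.01% to 44.3% between libraries of the 12. Each marker with a locus in the 9 cell type and region lists was above 0 in at least 1 of the 16 libraries. Summed FPKM of 12 striatal genes, such as Drd1 and Ppp1r1b, was 1505 in HF 8, 842, 886 and 1118 in HF+PBS 2, 3 and 4, and 263 to 541 in the other 12 libraries. Oligodendrocyte and myelin genes summed to 12967 and 13909 in HF+PBS 3 and 4, against 2401 to 7331 elsewhere. The sample titles give the letters HFD to the PBS animals whereas the design text uses them for the diet alone, and the groups follow the treatment stated for each sample; were HF and HF+PBS exchanged, their values below would change places. In such bulk tissue, fewer cells of a type and less RNA per cell cannot be told apart.

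Group differences were estimated with limma on log2(FPKM + 0.5) over all 16 samples, and a locus was called at a Benjamini-Hochberg adjusted p below 0.05 over the 14824 loci. Fosl2 was lower in both injected groups than in both uninjected groups, and Egr3 was lower in both injected groups than in chow. The other 7 members (Fos, Junb, Arc, Egr1, Egr2, Nr4a1 and Npas4) were called in no comparison. Between HF and chow, 0 of 9 members were called, as were 0% of all loci, and at an unadjusted p below 0.05 the count was 2 of 9 members, Fos and Arc, beside 6.88% of loci. In HF+PBS against chow, 2 of 9 members were called, both lower, beside 28.2% of loci in either direction and 15.7% lower. For HF+5-AzaD against chow, the count was also 2 of 9, both lower, beside 16.3% of loci called and 9.11% called lower. HF+PBS against HF gave 1 of 9 members, Fosl2, lower, beside 23.9% of loci called and 13.2% called lower, and HF+5-AzaD against HF gave the same 1 of 9, beside 14.2% and 7.64%. Between HF+5-AzaD and HF+PBS, 0 of 9 members were called, as were 0% of loci, and 0 members passed at an unadjusted p below 0.05, beside 7.42% of loci. In the F test over all 4 groups 2 of 9 members passed, beside 26.5% of loci, so the share of members called is close to that of loci in general. These comparisons share groups with each other and are not independent. The labels number the samples of a group without saying more on how they were taken, so p-values measure the spread between these samples.

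**Figure D1:**
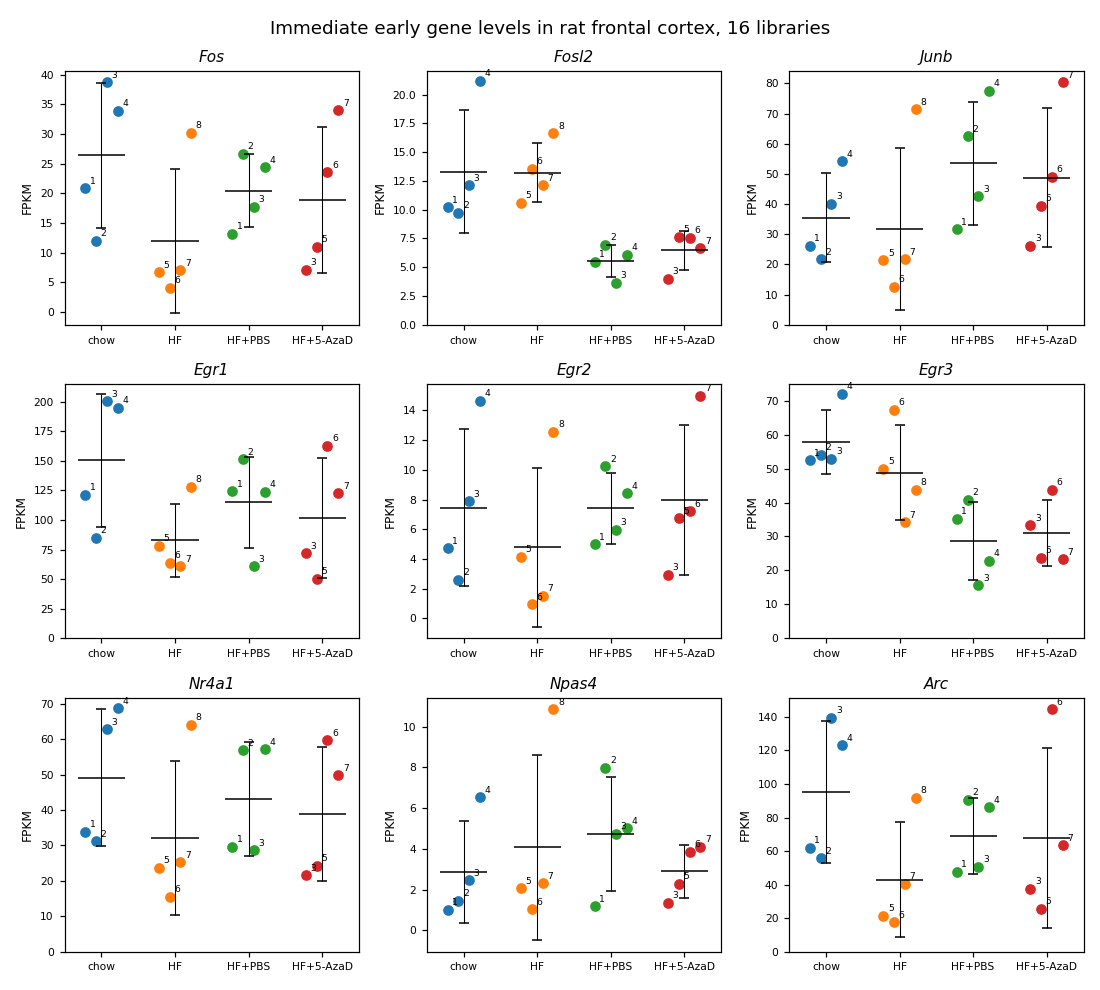
FPKM (vertical axis, linear, 1 panel per gene) of the 9 members in 16 libraries by group; points are libraries with their label numbers, and lines with bars are the mean ± SD of 4 libraries. Fosl2 is at most 7.64 FPKM in the 8 injected libraries and at least 9.73 in the 8 uninjected ones, whereas for Fos, Junb, Arc, Egr1, Egr2, Nr4a1 and Npas4 every group overlaps every other.

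Over all 16 libraries the highest mean level per transcript length was that of Egr1, at 112 FPKM, followed by Arc at 68.6 FPKM. Junb (42.4 FPKM), Egr3 (41.6) and Nr4a1 (40.8) followed with ranges that overlap almost entirely, so their order is not resolved. Fos averaged 19.4 FPKM, Fosl2 9.64, Egr2 6.91 and Npas4 3.64. The ranges of Fosl2 (3.63 to 21.2) and Egr2 (0.960 to 15.0) overlap as well. The highest library exceeded the lowest 15.6 times for Egr2, 10.8 times for Npas4, 9.58 times for Fos and 3.99 times for Egr1.

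Among the AP-1 members, Fosl2, whose protein (Fra-2) is the Fos-type partner with slower and longer induction, was the only member called in 4 of the 6 comparisons. Chow libraries 1 to 4 had 10.2, 9.73, 12.1 and 21.2 FPKM of Fosl2, and HF libraries 5 to 8 had 10.6, 13.5, 12.1 and 16.6. HF+PBS libraries 1 to 4 had 5.48, 6.96, 3.63 and 6.10 FPKM of it, and HF+5-AzaD libraries 3, 5, 6 and 7 had 4.01, 7.64, 7.57 and 6.64. Each of the 8 injected libraries lies below each of the 8 uninjected ones, with the 2 sets separated between 7.64 and 9.73 FPKM. The share of all loci that separate these 2 sets of 8 was not computed, and the shares below are for pairs of groups of 4. Beside this, in HF+PBS against chow 33.3% of all loci had groups that do not overlap (19.1% with HF+PBS lower). The shares were 27.2% (14.8% lower) in HF+5-AzaD against chow, 21.2% (11.9% lower) in HF+PBS against HF and 17.7% (8.78% lower) in HF+5-AzaD against HF.

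The Fosl2 difference on the log2(FPKM + 0.5) scale was -1.16 (SE 0.257, limma adjusted p = 0.00690) for HF+PBS against chow and -1.20 (SE 0.257, limma adjusted p = 0.00641) for HF+PBS against HF, or 0.449 and 0.436 times the uninjected level. HF+5-AzaD stood at 0.515 times chow (log2 difference -0.96, limma adjusted p = 0.0271) and 0.501 times HF (-0.998, limma adjusted p = 0.0236). The uninjected groups had means of 13.3 ± 5.35 FPKM in chow and 13.2 ± 2.58 in HF (SD, n = 4), a log2 difference of 0.04 with a 95% confidence interval from -0.51 to 0.59. The injected groups had 5.54 ± 1.41 FPKM with PBS and 6.46 ± 1.70 with 5-AzaD (SD, n = 4), with an interval of their log2 difference from -0.35 to 0.75.

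Neither PBS call of Fosl2 was lost when any single library was left out. With HF 8 and HF+PBS 3 and 4 set aside, the libraries highest in striatal and in myelin genes, the HF+PBS differences were -0.98 against chow (limma adjusted p = 0.103) and -0.91 against HF (0.132), and that of HF+5-AzaD against HF was -0.89 (0.0502), so none of the 3 passed. HF+5-AzaD against chow holds none of these libraries. Setting aside all 4 libraries high in striatal genes leaves 1 HF+PBS library, assumed to vary like the other groups. The HF+PBS differences were then -1.14 against chow and -1.07 against HF. The HF+5-AzaD call against chow was lost without chow 3, chow 4, HF+5-AzaD 3 or HF+5-AzaD 7 (log2 differences -0.98 to -0.72). The one against HF was lost without HF 6, HF 8, HF+5-AzaD 3 or HF+5-AzaD 7 (-1.02 to -0.80), and among the 12 libraries with matching steps neither passed (limma adjusted p = 0.0818 and 0.0841).

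Fos, the classical immediate early gene, stood at 20.8, 12.02, 38.7 and 34.0 FPKM in chow 1 to 4 and at 6.64, 4.05, 6.98 and 30.2 in HF 5 to 8. Levels in HF+PBS 1 to 4 were 13.1, 26.7, 17.7 and 24.4 FPKM, and in HF+5-AzaD 3, 5, 6 and 7 they were 7.08, 10.9, 23.5 and 34.0. In HF the first 3 libraries lie below every chow library, and HF 8 lies among the chow values. The HF group had 11.96 ± 12.2 FPKM and chow 26.4 ± 12.2 (SD, n = 4), a log2 difference of -1.40 (SE 0.574) that did not pass (limma adjusted p = 0.696).

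Junb, the Jun-type member and a common partner of Fos, was at 26.2, 21.7, 40.0 and 54.2 FPKM in chow 1 to 4 and at 21.4, 12.6, 21.7 and 71.4 in HF 5 to 8. With PBS the levels were 31.7, 62.5, 42.5 and 77.5 FPKM in libraries 1 to 4, and with 5-AzaD they were 26.3, 39.4, 49.0 and 80.4 in libraries 3, 5, 6 and 7. Each group spans a range of at least 2.45 times from lowest to highest, and all overlap. HF+PBS against HF gave log2 differences of 1.12 for Fos (SE 0.574, limma adjusted p = 0.166) and 0.97 for Junb (SE 0.477, limma adjusted p = 0.150). Both depended on the libraries kept. Without HF 8 they were 1.70 (limma adjusted p = 0.0305) and 1.46 (0.0254), and both were then called higher with PBS. With HF+PBS 3 and 4 also set aside they were 1.625 (limma adjusted p = 0.1645) and 1.28 (0.157), and neither passed. With all 4 libraries high in striatal genes set aside, which leaves 1 HF+PBS library, they were 1.13 and 0.79.

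Among the zinc finger factors, Egr3, which is induced by synaptic activity and growth factors, was called in both comparisons of injected animals with chow. Chow 1 to 4 had 52.4, 54.1, 52.8 and 72.0 FPKM of Egr3 and HF 5 to 8 had 49.9, 67.3, 34.2 and 43.7. HF+PBS 1 to 4 had 35.2, 40.8, 15.6 and 22.9 FPKM, and HF+5-AzaD 3, 5, 6 and 7 had 33.2, 23.7, 43.7 and 23.3. All 8 injected libraries lie below all 4 chow libraries, while HF 7 lies inside the range of both injected groups. Of all loci, 19.1% had HF+PBS wholly below chow and 14.8% had HF+5-AzaD wholly below chow, and the share with both was not computed.

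Against chow (57.8 ± 9.48 FPKM, SD, n = 4), Egr3 was at 0.472 times in HF+PBS (28.6 ± 11.4 FPKM, log2 difference -1.08, SE 0.285, limma adjusted p = 0.0145) and at 0.527 times in HF+5-AzaD (31.0 ± 9.61 FPKM, -0.92, SE 0.285, limma adjusted p = 0.0419). In both of these comparisons with chow, diet and injections differ together. Against HF the differences were -0.81 (limma adjusted p = 0.0519) with PBS and -0.65 (0.128) with 5-AzaD, and neither passed. The HF+PBS difference from HF passed without HF 7, HF+PBS 1, HF+PBS 2 or HF+5-AzaD 6 (-1.01 to -0.81). Setting aside HF 8 and HF+PBS 3 and 4 moved HF+PBS against chow from -1.08 to -0.59 (limma adjusted p = 0.243). The HF+5-AzaD call against chow is near the threshold and was lost without any 1 of 9 libraries: each chow library, HF 5, HF 8, and HF+5-AzaD 3, 5 or 7 (log2 differences -0.97 to -0.81, limma adjusted p up to 0.137).

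Levels of 4 lists of cortical neuron markers stand beside these differences. Of these lists, only the upper layer sums of chow and HF+PBS did not overlap among chow and the injected groups. Summed FPKM of 7 upper layer genes, such as Cux2 and Rorb, was 312 to 403 in chow, 214 to 320 in HF, 136 to 296 in HF+PBS and 168 to 371 in HF+5-AzaD. The 8 excitatory neuron markers summed to 4803 to 5308 FPKM in chow, 2918 to 5739 in HF, 1666 to 5437 in HF+PBS and 3254 to 6323 in HF+5-AzaD, so all 4 groups overlap. The 10 deep layer genes summed to 179 to 349 FPKM in chow, 252 to 539 in HF, 222 to 467 in HF+PBS and 208 to 447 in HF+5-AzaD. For the 9 GABAergic interneuron markers the sums were 695 to 807, 531 to 738, 777 to 973 and 519 to 934 FPKM in the same order. The sums of HF and HF+PBS thus did not overlap. Outside these lists, 8 microglia genes summed to 133 to 143 FPKM in chow, below HF (150 to 197) and HF+5-AzaD (150 to 267). Their sums in HF+PBS, 131 to 302 FPKM, overlapped those of chow. HF+PBS 3, the library with the lowest Egr3 and Fosl2 of all 16, was also the lowest in the upper layer and excitatory lists, and the part of these markers in the Egr3 and Fosl2 differences was not tested.

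Egr1 is the factor most used as an activity marker in cortex, next to Fos. Its levels were 121, 84.9, 200.2 and 195 FPKM in chow 1 to 4 and 78.1, 64.0, 60.7 and 128 in HF 5 to 8. They were 124, 151, 60.8 and 124 FPKM in HF+PBS 1 to 4 and 72.0, 50.1, 163 and 123 in HF+5-AzaD 3, 5, 6 and 7. Chow had the highest mean, 150 ± 56.5 FPKM against 82.7 ± 31.0 in HF (SD, n = 4), and the log2 difference of HF from chow was -0.84 (SE 0.395, limma adjusted p = 0.716). Egr2, the least abundant of the 3 Egr members, varied most among libraries: 4.71, 2.59, 7.88 and 14.7 FPKM in chow and 4.16, 0.960, 1.51 and 12.5 in HF, in label order. It was at 4.98, 10.2, 5.98 and 8.43 FPKM in HF+PBS and at 2.92, 6.74, 7.21 and 15.0 in HF+5-AzaD, so no group stands apart. The largest Egr2 difference, 1.06 for HF+PBS against HF, has a 95% confidence interval from -0.30 to 2.43.

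Nr4a1 encodes Nur77, a receptor-type factor induced by many stimuli. Chow 1 to 4 held 33.8, 31.2, 62.8 and 68.7 FPKM and HF 5 to 8 held 23.8, 15.5, 25.3 and 64.0. HF+PBS 1 to 4 held 29.6, 56.9, 28.6 and 57.1 FPKM, and HF+5-AzaD 3, 5, 6 and 7 held 21.5, 24.2, 59.7 and 49.7. In chow, HF+PBS and HF+5-AzaD alike, 2 libraries lie at or below 33.8 FPKM and 2 at or above 49.7, and in HF only library 8 lies above 25.3. Npas4 was low, at 1.00, 1.44, 2.44 and 6.53 FPKM in chow and 2.06, 1.04, 2.31 and 10.9 in HF. With PBS it was at 1.18, 7.98, 4.73 and 5.00 FPKM and with 5-AzaD at 1.33, 2.29, 3.86 and 4.10. The 6 differences of Npas4 lay between -0.50 and 0.69 on the log2 scale, each with a standard error of 0.634, and leaving out 1 library reversed the sign of 3 of them.

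Arc, whose protein acts at the synapse in trafficking of glutamate receptors, stood at 61.9, 55.8, 139 and 123 FPKM in chow 1 to 4 and at 21.5, 17.7, 40.7 and 91.8 in HF 5 to 8. HF+PBS 1 to 4 were at 47.7, 90.5, 50.7 and 86.1 FPKM and HF+5-AzaD 3, 5, 6 and 7 at 37.4, 25.7, 144.5 and 63.6. As for Fos, 3 of the 4 HF libraries lie below all chow libraries and HF 8 lies within them. The log2 difference of HF from chow was -1.33 (SE 0.552, 95% confidence interval -2.51 to -0.15, limma adjusted p = 0.696).

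**Figure D2:**
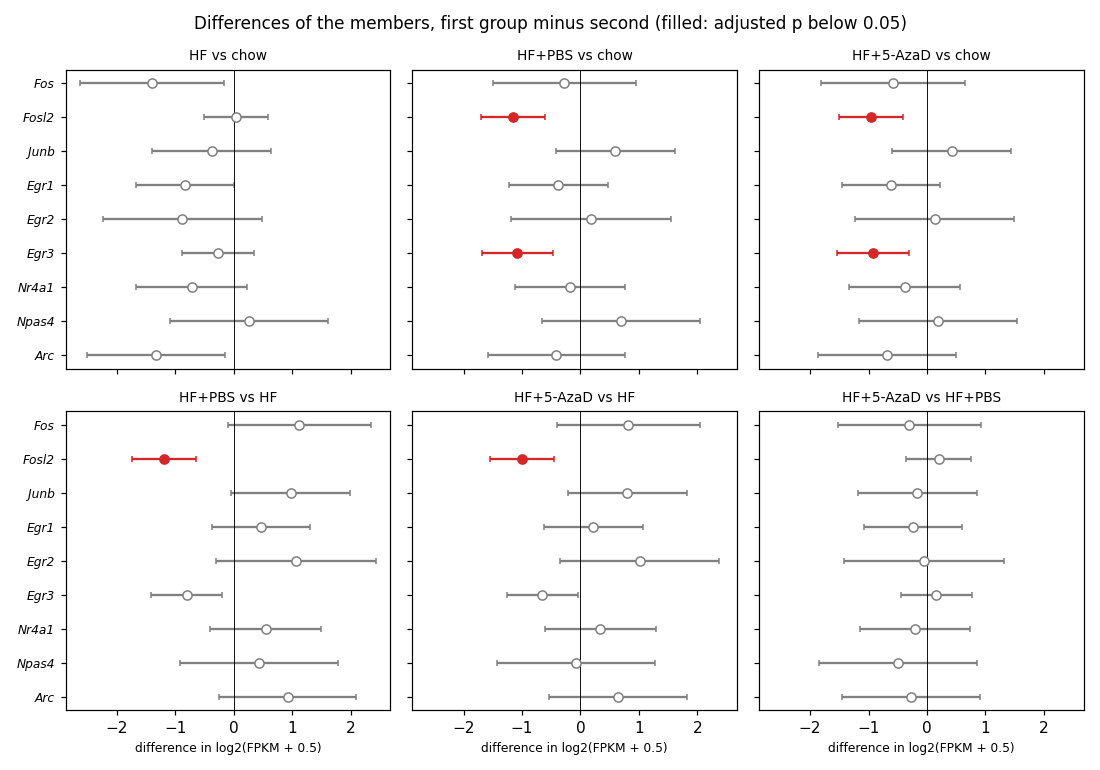
Differences in log2(FPKM + 0.5) (horizontal axis, first group minus second) of the 9 members in the 6 comparisons, as points with 95% confidence intervals; filled points passed at an adjusted p below 0.05. Fosl2 is called lower in 4 comparisons and Egr3 in 2, and the intervals of the other 7 members are wide, for Egr2 from -0.30 to 2.43 in HF+PBS against HF.

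The median direction of the 9 members, called ones included, differed between comparisons. Most members varied together, so they are not separate observations of direction. Of all loci, 48.2% were higher in HF than in chow and 51.4% in HF+PBS than in HF. The median member difference was -0.72 for HF against chow, with 2 of 9 members higher, and 0.54 for HF+PBS against HF, with 7 of 9 higher, where the medians of all loci were -0.01 and 0.01. HF enters both comparisons, and its 3 low libraries bear on both. The medians for HF+PBS against chow (-0.28), HF+5-AzaD against chow (-0.58), HF+5-AzaD against HF (0.34) and HF+5-AzaD against HF+PBS (-0.20) lie between these, with those of all loci at 0.00 to 0.02. Of the 9 differences of HF+5-AzaD from HF+PBS, 7 were below 0, from -0.50 to -0.05, and each interval includes 0: for Fos the interval ran from -1.53 to 0.92 and for Egr1 from -1.08 to 0.60. Among all loci, 52.8% were above 0 in this comparison.

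Spread between libraries of the same group was the main feature of most members. The residual SD, on the log2 scale with group means removed, was 0.99 for Egr2, 0.98 for Npas4, 0.89 for Fos, 0.86 for Arc, 0.74 for Junb, 0.69 for Nr4a1 and 0.61 for Egr1, against a median of 0.232 over all tested loci. These 7 lie between the 92.3rd and the 97.6th percentile of loci. Egr3 (0.44, 83.2nd percentile) and Fosl2 (0.39, 78.9th percentile), the called members, varied least. 

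**Figure D3:**
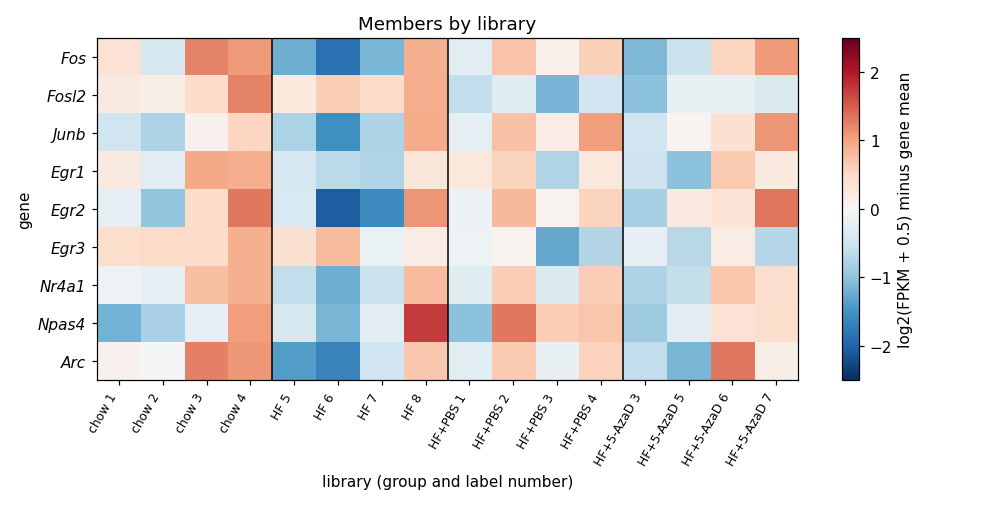
Colour shows log2(FPKM + 0.5) of each member (rows) in each library (columns, by group) minus that gene's mean over 16 libraries. Fos, Junb, Arc, Egr1, Egr2, Nr4a1 and Npas4 are all above their means in chow 4, HF 8, HF+PBS 2 and 4 and HF+5-AzaD 6 and 7, and all below them in HF 5, 6 and 7, while Fosl2 is low in the 8 injected libraries.

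The same libraries were high for most members. HF 8 was the highest HF library for 8 of 9 members, all but Egr3. HF+PBS 2 was highest in its group for 7 of 9, chow 4 for 6 of 9 with chow 3 highest for the other 3, and HF+5-AzaD 6 and 7 for 4 each. Chow 2 was the lowest chow library for 7 of 9 members, and HF 6 and HF+5-AzaD 3 were lowest in their groups for 6 of 9 each. The 4 libraries whose low values step differently all lay below their group's mean over Fos, Junb, Arc, Egr1, Egr2, Nr4a1 and Npas4, by -0.43 in chow, -0.22 in HF, -0.55 in HF+PBS and -0.77 in HF+5-AzaD on the log2 scale; with 1 such library per group they fall equally on all groups, and their part in the spread was not tested. Over the same 7 genes the 4 libraries high in striatal genes deviated from their group means by 1.44 (HF 8), 0.50 (HF+PBS 2), -0.31 (HF+PBS 3) and 0.35 (HF+PBS 4).

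Correlations across the 16 libraries were computed after removing group means, for all 36 pairs of the 9 members, with p-values from 100000 permutations of libraries within groups (two-sided) adjusted over the 36 pairs. The median Pearson r was 0.666 (range -0.153 to 0.950), and 27 pairs passed by Pearson and 22 by Spearman. Fos and Junb gave r = 0.950 (permutation adjusted p = 0.00060) and rho = 0.903 (permutation adjusted p = 0.00090), and r = 0.903 without the 2 libraries farthest from the median of Fos. Junb and Egr2 gave r = 0.934 and rho = 0.888, Arc and Nr4a1 r = 0.933 and rho = 0.862, and Junb and Npas4 r = 0.906 and rho = 0.932, with permutation adjusted p from 0.00060 to 0.0013. All 21 pairs among Fos, Junb, Arc, Egr1, Egr2, Nr4a1 and Npas4 had r of at least 0.55.

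For Egr3 such shared variation was not detectable: its r with the other 8 members had a median of 0.036 and ran from -0.153 with Junb to 0.499 with Egr1, and 0 of the 8 pairs passed by either measure. Fosl2 was intermediate, with a median r of 0.611 and a highest r of 0.662 with Nr4a1 (permutation adjusted p = 0.0131, rho = 0.665). Fosl2 and Egr3 themselves gave r = 0.398 within groups (permutation adjusted p = 0.179), and r = 0.764 with group means left in. Among the 12 libraries with matching steps the median r of the 36 pairs was 0.706. Libraries share their depth and composition in such correlations, and the part of these was not tested. The median log2 level of all tested loci was 3.23 to 3.32 across libraries, which does not show composition. How often other pairs of loci correlate this much was not computed.

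**Figure D4:**
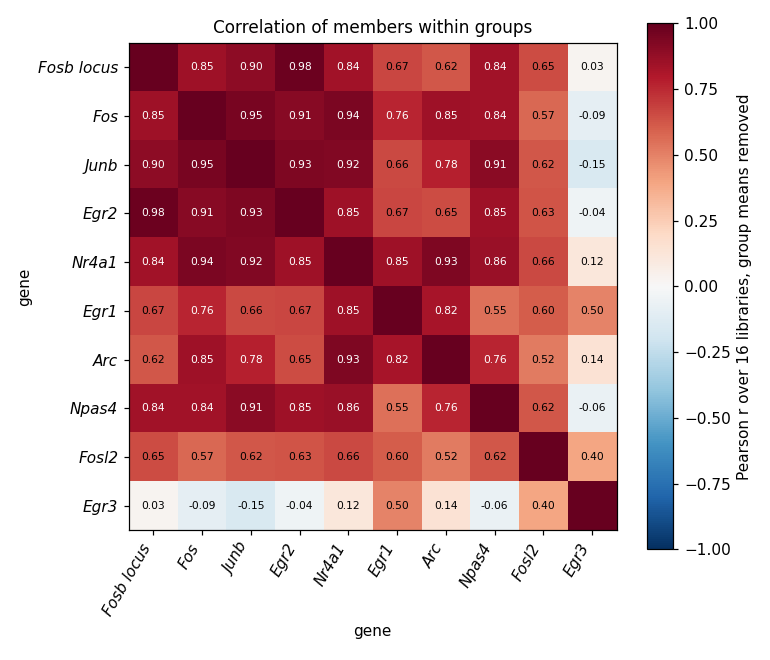
Pearson r over 16 libraries with group means removed, for the 9 members and the locus that carries the Fosb gene ID; colour runs from -1 to 1. Pairs among Fos, Junb, Egr2, Nr4a1, Egr1, Arc and Npas4 lie between 0.55 and 0.95, and Egr3 lies between -0.15 and 0.50 with every other member.

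Fosb, whose splice form ΔFosB is known to build up under repeated stimulation, is absent from the symbols of the table. Its RefSeq gene ID, 100360880, is that of a locus listed as LOC100360880, which was noticed only after its values had been seen. It had 4.30, 4.03, 6.50 and 9.52 FPKM in chow 1 to 4, 7.04, 2.82, 3.69 and 10.5 in HF 5 to 8, 4.84, 7.47, 4.71 and 6.37 in HF+PBS 1 to 4 and 3.25, 5.47, 5.58 and 7.54 in HF+5-AzaD 3, 5, 6 and 7. Groups overlap throughout, the group means span 5.46 to 6.09 FPKM, and the log2 differences between groups were -0.12 to 0.10 (limma F test, adjusted p = 0.983). Within groups LOC100360880 followed Egr2 closely (r = 0.979, rho = 0.979, permutation adjusted p = 0.00018 over 9 pairs) and Junb (r = 0.898, rho = 0.847), but not Egr3 (r = 0.028, permutation adjusted p = 0.924). The adjustment over 9 pairs takes no account of the locus having been noticed after its values were seen, so these p-values are descriptive.

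Other loci were ranked by their correlation over the 16 libraries with the mean scaled level of the members, 10530 loci with a symbol in all. The highest was Sertad1, a cofactor of cell cycle transcription (r = 0.880), followed by LOC100360880 (0.841), Per1, a circadian clock gene that is also an immediate early gene (0.814), Midn (0.813), Zscan21 (0.807) and Trib1 (0.785). Next came Dusp1 (0.782) and Dusp6 (0.777), phosphatases that switch off MAP kinases, the histone demethylase gene Kdm6b (0.731) and Egr4 (0.722), a further Egr factor. The lowest were Dact3 (-0.701), Zfp867 (-0.694) and Zbtb25 (-0.671). Dusp1, for one, stood at 41.4 ± 8.30 FPKM in chow, 26.3 ± 15.8 in HF, 41.0 ± 6.69 in HF+PBS and 37.8 ± 15.7 in HF+5-AzaD (SD, n = 4), and no comparison among these passed.

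The rest of the pathway was read from 4 lists, beginning with other rapid response genes. Of 24 tested, 2 were called higher and 2 lower in HF+PBS against chow, 1 higher in HF+5-AzaD against chow, 2 higher and 2 lower in HF+PBS against HF, 2 higher and 1 lower in HF+5-AzaD against HF, and 0 in the remaining 2 comparisons. Beside these counts, 28.2%, 16.3%, 23.9% and 14.2% of all loci were called in the first 4 comparisons, in the same order. Jund, the Jun-type AP-1 gene with the steadiest expression, was called higher in all 4: 69.1 ± 2.71 FPKM in chow and 77.1 ± 6.57 in HF, against 99.4 ± 7.27 with PBS and 105.5 ± 21.98 with 5-AzaD (SD, n = 4; limma adjusted p from 0.00867 to 0.0426). Dusp4, a MAP kinase phosphatase, was lower with PBS (4.34 ± 1.38 FPKM) than in chow (9.48 ± 1.05) and HF (6.75 ± 0.870). Amigo3 was lower with PBS than in chow and in HF and with 5-AzaD than in HF. Gadd45b, known for a role in active DNA demethylation, was higher in both injected groups (11.9 ± 0.949 FPKM with PBS and 12.6 ± 3.25 with 5-AzaD) than in HF (7.96 ± 2.39). Cyr61, a secreted matrix protein gene, was higher with PBS (5.13 ± 3.97 FPKM) than in chow (0.607 ± 0.153). The list medians lay between -0.23 and 0.29, and those of all loci within 0.02 of 0.

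Among 15 tested later effector genes, which include Bdnf, Homer1 and Nptx2, 1 was called, Inhba, lower in HF+5-AzaD (1.06 ± 0.546 FPKM) than in HF (2.48 ± 0.857). In that comparison 14.2% of all loci were called. Bdnf stood at 5.59 ± 1.10 FPKM in chow, 6.01 ± 2.60 in HF, 6.76 ± 2.52 in HF+PBS and 6.39 ± 1.28 in HF+5-AzaD (SD, n = 4). Homer1 was at 51.7 ± 4.26, 46.2 ± 14.9, 32.4 ± 14.7 and 34.2 ± 15.6 FPKM in the same order, and neither gene was called. Of 18 upstream kinase, channel and transcription factor genes, 4 were called lower and 1 higher in HF+PBS against chow and likewise against HF, and 2 lower in HF+5-AzaD against chow and against HF. The shares of all loci called were 28.2% and 23.9% for HF+PBS and 16.3% and 14.2% for HF+5-AzaD, against chow and HF in turn. Crtc1, the coactivator of CREB, had 39.4 ± 6.30 FPKM in chow and 39.9 ± 13.8 in HF, against 17.3 ± 4.12 with PBS and 21.0 ± 5.62 with 5-AzaD. Mef2d, a calcium-responsive factor, was at 67.7 ± 6.69 and 67.3 ± 13.9 FPKM against 38.3 ± 8.63 and 46.8 ± 2.74. Both were called lower in each injected group against each uninjected one (limma adjusted p from 0.00366 to 0.0443). Camk2b was lower with PBS than in chow and HF, Camk4 with PBS than in chow, and Srf, the gene of serum response factor, with PBS than in HF, while Atf1 was higher with PBS than in both.

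Of 9 interaction partners and repressors, of which Jun and Jund are also in the first list, 4 were called lower and 1 higher in HF+PBS against chow, 2 lower and 1 higher in HF+PBS against HF, and 1 lower and 1 higher in each comparison of HF+5-AzaD with an uninjected group. Arnt2, the partner through which Npas4 binds DNA, had 50.7 ± 5.56 FPKM in chow and 52.3 ± 6.80 in HF, against 32.1 ± 4.61 with PBS and 33.8 ± 3.36 with 5-AzaD (SD, n = 4; limma adjusted p from 0.00299 to 0.0126). Jdp2, a repressor that pairs with Jun proteins, was at 22.5 ± 6.91 FPKM with PBS against 48.7 ± 3.92 in chow (limma adjusted p = 0.00760). Nab2, which binds and represses Egr factors, and the corepressor gene Ncor1 were also lower with PBS than in chow. These counts stand beside the shares of all loci called in the same comparisons, given above, and the lists were drawn up by name.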

How the data were processed

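Poly-A RNA from frontal cortex was sequenced, per the labels' protocols, and rat build rn5 with Cuffdiff, Cufflinks, TopHat2, TopHat, Bowtie2 and Bowtie, none with a version, are listed by the submitters' processing notes. The deposited table holds FPKM per merged locus, from the authors' own pipeline, and marks each value with a status. Whether counting used strand is not stated, so antisense reads cannot be told apart. Columns were matched to samples by their titles, and 0 columns lay outside the series.

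Loci with status OK in all 16 samples and a mean of at least 1 FPKM were kept. Differences were fitted with limma 3.58.1 (R 4.3.3) on log2(FPKM + 0.5), with 1 mean per group and 6 contrasts, and adjusted by Benjamini-Hochberg over 14824 loci. On this scale the change of low genes is understated. The fitting code was tested on simulated data. Correlations, with 100000 permutations, used scipy 1.17.1 in Python 3.11.15; the 10 names would give more than the 36 pairs used, but Fosb had no locus. All 9 members were described in every sample and comparison, and the 10 highest and 3 lowest loci by likeness were named. Members, gene lists and markers were chosen with earlier results of these data known. Alternatives were other pseudocounts, filters, scalings and priors, 2-group fits, a replicate block and left-out libraries. Setting aside HF 8 and HF+PBS 3 and 4, or the 4 libraries rich in striatal genes, keeping 12 libraries with matching steps, a term for the other 4, and the locus with the Fosb gene ID were chosen after seeing the data. The labels do not state that sample numbers pair animals, so the main fit took no pairs. Same-numbered samples of chow and HF+PBS, and of HF and HF+5-AzaD, correlated from -0.164 to 0.0641 after group means were removed.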

Additional observations from a re-analysis of the deposited data

Results flagged for a closer look

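Of 36 gene and group sets of 4 libraries, 4 held a library whose gap to its nearest neighbour as a share of the group's range exceeded Dixon's 95% critical value, where chance gives about 1 in 20. HF 8 was far above the other HF libraries for Fos (30.2 FPKM), Junb (71.4 FPKM) and Npas4 (10.9 FPKM), 3 genes that vary together and so are not 3 separate observations. Chow 4 was above the other chow libraries for Egr3 (72.0 FPKM). HF 8 was also the highest of all 16 libraries in summed striatal markers, and the part of these in its Fos, Junb and Npas4 levels was not tested.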

How the results depend on the processing

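Of 1476 values of the 54 member differences under alternatives, 1430 kept their direction, 46 reversed, 31 lost the call and 7 gained it. Counts of members called were, with 1 library left out in turn, 0 to 2 for HF+5-AzaD against chow, 1 to 3 for HF+PBS against HF, 0 to 1 for HF+5-AzaD against HF and 1 to 3 in the F test. HF+5-AzaD against chow gave 1 without the filter on the mean, HF+PBS against HF gave 2 with quantile normalization, and HF+5-AzaD against HF gave 0 with only those 2 groups. Keeping the 12 libraries with matching steps gave 0 for HF+5-AzaD against chow and against HF and 1 in the F test. Setting aside HF 8 and HF+PBS 3 and 4 gave 0 for HF+PBS against chow and against HF, 0 for HF+5-AzaD against HF and 1 in the F test, and setting aside the 4 libraries rich in striatal genes gave 0 for each of these 4; fewer samples were then compared. The replicate block, which for HF+5-AzaD against HF uses 3 pairs and leaves out HF 8 and HF+5-AzaD 3, gave 0 calls there (Fosl2 -0.69) and kept 2 for HF+PBS against chow. 

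Reversed values were all of uncalled differences. With the replicate block Npas4 in HF+5-AzaD against HF went from -0.07 to 0.78. The 12 libraries with matching steps gave 0.064 for it and 0.16 for Egr2 in HF+5-AzaD against HF+PBS. Without HF 8 and HF+PBS 3 and 4, HF against chow gave -0.071 for Fosl2 and -0.32 for Npas4, HF+5-AzaD against HF gave 0.51 for Npas4, and HF+5-AzaD against HF+PBS gave 0.015 for Junb and -0.33 for Egr3. Without the 4 libraries high in striatal genes, HF against chow gave -0.071 for Fosl2 and -0.32 for Npas4. In the same setting HF+PBS against chow gave -0.074 for Junb, -0.30 for Egr2 and -0.73 for Npas4. Npas4 was then -0.41 in HF+PBS against HF and 0.51 in HF+5-AzaD against HF. HF+5-AzaD against HF+PBS then gave 0.26 for Fos, 0.50 for Junb, 0.19 for Arc, 0.43 for Egr2, -0.23 for Egr3, 0.25 for Nr4a1 and 0.92 for Npas4. Leaving out 1 library moved HF against chow from -0.079 to 0.28 for Fosl2 and -0.32 to 0.71 for Npas4, HF+PBS against chow from -0.19 to 0.57 for Egr2 and -0.37 to 0.0097 for Nr4a1, HF+5-AzaD against chow from -0.24 to 0.52 for Egr2 and -0.11 to 0.64 for Npas4, and HF+5-AzaD against HF from -0.0503 to 0.51 for Egr1 and -0.45 to 0.51 for Npas4. For HF+5-AzaD against HF+PBS it gave -0.66 to 0.065 for Fos, -0.44 to 0.087 for Junb, -0.73 to 0.088 for Arc, -0.52 to 0.0495 for Egr1, -0.41 to 0.32 for Egr2, -0.095 to 0.36 for Egr3 and -0.45 to 0.0296 for Nr4a1. The causes were not tested.

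The median pairwise correlation stayed between 0.617 and 0.769 with 1 library left out. Absolute depth is unknown, so counting error in low members such as Npas4 cannot be separated from variation between animals. Calls of HF+5-AzaD differences lie close to the threshold.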

Other observations

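Ratios between members were picked out after their values were seen, so they carry no test. FPKM of Fos over FPKM of Junb, the Fos-type and Jun-type members that varied most closely together, was 0.554 to 0.968 in the 4 chow libraries. It was 0.310 to 0.423 in HF, 0.315 to 0.426 in HF+PBS and 0.269 to 0.481 in HF+5-AzaD, so each of the 12 high fat diet libraries lay below each chow library, HF 8 included. The share of other gene pairs whose ratios separate in this way was not computed, and neither gene was called in any comparison. Fos over Fosl2 was 2.40 to 4.87 in HF+PBS and 0.299 to 1.81 in HF, 2 ranges that do not overlap, against 1.23 to 3.19 in chow and 1.43 to 5.13 in HF+5-AzaD; Fosl2 alone also separates HF from HF+PBS. Arc over Fos did not separate the groups, with medians of 3.61 in chow, 3.81 in HF, 3.46 in HF+PBS and 3.82 in HF+5-AzaD. Egr1 over Egr2 overlapped among all groups, at 13.3 to 32.8 in chow and 10.2 to 66.7 in HF. It was 10.2 to 25.0 in HF+PBS and 7.43 to 24.6 in HF+5-AzaD. Egr1 over Egr3 was 3.53 to 5.41 in HF+PBS and 0.951 to 2.92 in HF, while chow (1.57 to 3.79) and HF+5-AzaD (2.11 to 5.26) overlap both.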
